A study of Mus musculus with 59 samples.

Results

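Gene expression in the infarcted left ventricle of the mouse was compared with that in sham-operated mice 1 h after the operation. The infarct group held the 3 arrays whose titles name infarcted left ventricle at 1 h, and the sham upper group the 3 arrays whose titles name left ventricle at 1 h and whose source is given as sham-operated mice. Arrays were chosen by these labels alone, which gave 6 of the 59 arrays of the series, and no measured value was used. Each array measured total RNA from 1 piece of ventricle. Infarct tissue came from below the left anterior descending (LAD) artery, towards the apex, where the infarct formed. Sham upper tissue came from above that artery in mice that had the operation without an infarct, and the labels name it as the control of the infarcted tissue. The series also holds remote tissue, from above the artery in the infarcted hearts, and sham lower tissue, from below it, and follows these regions at 1 h, 4 h, 24 h, 48 h, 1 week and 8 weeks. At 1 h there were 3 remote arrays and 1 sham lower array. Strain, sex and age are not given in the labels used here. The labels also do not say what the number in a title stands for. The same 3 numbers recur on the infarct and remote arrays, 3 others are those of the sham upper arrays, and the sham lower array carries the third of these. They were taken as the numbers of the mice, and values are given in rising order of this number. If the arrays were not separate mice, the p values measure only the spread between these pieces of tissue.

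The first hour after a coronary artery closes is the time of ischaemic injury, before many white blood cells have entered the muscle. Cells under such stress switch on immediate early genes, whose transcription needs no new protein, through kinases that act on factors already bound at their promoters. The products of these genes include transcription factors of the AP-1 and Egr families, inhibitors that end the signal, and chemokines and cytokines that later draw neutrophils and monocytes to the heart. The operation itself also stresses the heart, and sham-operated mice serve as the control for that.

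Intensities are the authors' linear values, and a log2 change is infarct minus sham upper after 45.6 was added to each intensity, so that changes of dim genes are understated. Changes are given ± SE, from limma fitted to all 59 arrays, with p values adjusted over 6670 genes, and a gene with an adjusted p below 0.05 is called. In the infarct arrays 244 genes were higher (3.66%) and 208 were lower (3.12%), together 452 of 6670 (6.78%). At least 2-fold changes on this scale were found for 46 of the higher genes (0.690%) and 18 of the lower genes (0.270%), and 10 rose and 0 fell at least 4-fold. The counts rest on the spread shared by all 59 arrays: with only the 6 arrays fitted, 36 genes were higher and 4 lower. Leaving out 1 array gave 112 to 255 higher and 93 to 149 lower genes, with the fewest, 112 and 93, without the first sham upper array. Without each infarct array in turn the counts were 175 and 117, 146 and 129, and 153 and 118. The median log2 change was 0.64 over the genes that rose, -0.58 over the genes that fell and -0.00017 over all genes tested. The 3 infarct arrays lay wholly above or wholly below the 3 sham upper arrays for 1676 genes (25.1%). Among the called genes, 232 of 244 and 192 of 208 did not overlap in this way. The largest falls lay near background: the infarct mean was below 108.2, the intensity used to filter genes, for 12 of the 18 genes that fell at least 2-fold. Of the 46 that rose at least 2-fold, 18 had a sham mean below it. The last gene inside the threshold was Pa2g4, at a log2 change of -0.46 ± 0.15 (adjusted p = 0.0497), and the first outside it was Ice1, at 0.55 ± 0.18 (adjusted p = 0.0502).

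**Figure D1:**
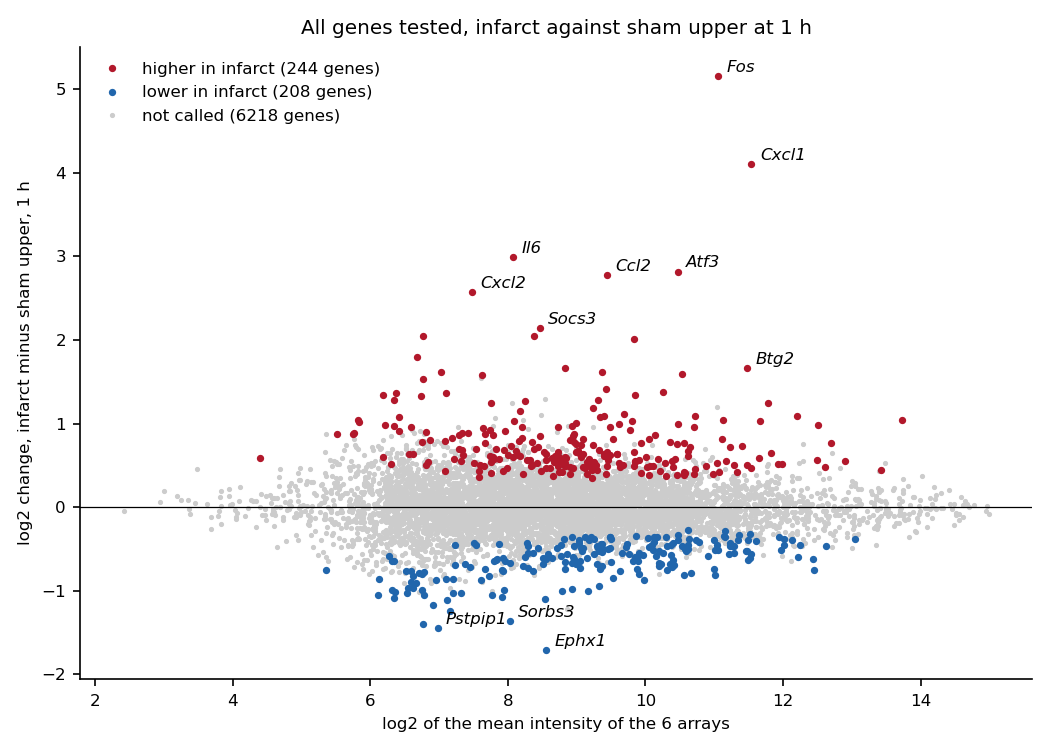
Each point is 1 of 6670 genes, with the log2 of its mean intensity over the 6 arrays on the horizontal axis and its log2 change, infarct minus sham upper at 1 h, on the vertical axis. The rises reach 5.16 (Fos) and 4.10 (Cxcl1), while the deepest fall is -1.71 (Ephx1).

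The arrays were close to each other in quality. Over the genes tested, arrays of the same group correlated at 0.968 to 0.979 and arrays of different groups at 0.957 to 0.963. The ratio of the 3' to the 5' control probe set of Gapdh was 0.867, 0.831 and 0.842 in infarct arrays and 0.864, 0.834 and 0.865 in sham upper arrays, so the groups overlapped. The ratio for beta-actin was 1.33, 1.37 and 1.34 in infarct arrays and 1.27, 1.32 and 1.24 in sham upper arrays, with every infarct array above every sham upper array. With 3 arrays against 3, an exact two-sided permutation test cannot give a p below 0.1, and this ratio gives that lowest value. Its part in the results below was not tested. Of 12 markers of cardiac muscle cells measured, 0 were called in either direction, and their summed intensity was 253387, 252459 and 261685 in infarct arrays, against 256066, 230248 and 273925 in sham upper arrays.

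The infarct and sham upper groups differ by position in the ventricle as well as by infarction, and their title numbers lie in separate ranges, so that infarction and a set of mice handled apart cannot be told apart. In sham mice of the 4 times from 4 h to 1 week, which share no array with the comparison at 1 h, 4 lower arrays differed from 12 upper arrays in 189 genes (2.83%), 96 higher (1.44%) and 93 lower (1.39%). Of the genes higher in infarct at 1 h, 23 (9.43%) were also higher in this lower tissue, and of the genes lower in infarct, 34 (16.3%) were also lower there; these made up 24.0% and 36.6% of the lists by position. Of the genes that changed at least 2-fold, 1 of the 46 and 1 of the 18 were among them, beside 1.44% and 1.39% of all genes tested. The single sham lower array of 1 h lay above all 3 sham upper arrays for 161 of the 244 genes higher in infarct (66.0%, against 28.3% of all genes tested), and below them all for 169 of the 208 lower genes (81.3%, against 23.8%). These genes were called on the same sham upper arrays, so part of this follows from the choice of genes. The sham lower array was below all infarct arrays for 182 of the 244 (24.96% of all genes tested) and above them all for 116 of the 208 (28.9%). Among the genes that changed at least 2-fold this held for 39 of 46 and 8 of 18. For the other 62 higher and 92 lower genes the sham lower array lay within or beyond the infarct arrays. The genes were called on these infarct arrays too, so an excess over all genes is built into these counts, and nothing is read from it. Over all 5 times with both sham regions, 1 h included, 5.92% of the genes differed by position.

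The arrays of 1 h were also set beside the 15 sham upper arrays of the 5 later times. All 3 sham arrays of 1 h lay below all 15 later ones for 80 of the 244 genes called higher and above them all for 27 of the 208 called lower, against 2.91% and 1.6% of all genes tested. The genes were called for values that are low or high in these same arrays, so an excess is built into their choice, and nothing is read from it. For 41 of the 244 the 3 infarct arrays lay above all 15 later sham arrays, against 1.9% of all genes tested, with the same limit, since the infarct arrays were used for the calls too. For 151 of the 244 they lay within the range of the later sham arrays, which is the share found over all genes tested (61.9%). Of the 208 genes called lower, 23 had all infarct arrays below the later sham arrays (1.18% of all genes tested). When the 15 later sham arrays were taken as the control in place of those of 1 h, an alternative added after the data were seen, 268 genes were higher and 203 lower, but only 59 of the 244 and 67 of the 208 were among them. Time since the operation and the set of arrays cannot be told apart in that comparison. Gene groups are described below with their levels in the later sham arrays.

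Genes of the AP-1 family, the transcription factors that bind DNA as pairs of Fos, Jun and Atf proteins, held the largest rise. Of 11 members tested, 5 rose and 0 fell, and the list's median log2 change was 0.38. Fos had 4483, 3789 and 4323 in infarct arrays, against 74.8, 71.3 and 72.5 in sham upper arrays. Every infarct array was thus far above all 18 sham upper arrays, whose later ones reached 541, and the log2 change was 5.16 ± 0.41, adjusted p = 9.4e-12. Atf3, a member induced by many kinds of stress, had 2968, 2271 and 2325 in infarct arrays, against 393, 223 and 355.3 in sham upper arrays (2.82 ± 0.32, adjusted p = 9e-08), and its second probe set rose as well, by 3.0015 ± 0.33. Junb, a Jun family member, had 1438, 1280.1 and 1776 in infarct arrays, against 308, 308 and 391.9 in sham upper arrays (2.01 ± 0.24, adjusted p = 2.7e-07), and its second probe set rose by 3.22 ± 0.33. The 2 groups were far apart for each of these genes, with no infarct array near a sham array. Fosb had 801, 808 and 968 in infarct arrays, against 305, 385 and 371 in sham upper arrays (1.18 ± 0.28, adjusted p = 0.0065). Jun itself had 716, 606 and 661 in infarct arrays, against 333, 249.6 and 374 in sham upper arrays, a smaller change of 0.97 ± 0.21, adjusted p = 0.003. All 5 genes had every infarct array above the 15 later sham arrays.

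The promoters of the strongest rises are shown because they carry short motifs that factors of the early response are known to bind. Of the 14 largest rises, 12 had an entry in the RefSeq promoter table (build GRCm38.p6), and the 250 bases before the start were searched. The motifs were TGACGT, the core of the cAMP response element, TGANTCA, the AP-1 site, and an NF-kB-like pattern, each on both strands. TATAAA, the TATA box, was searched on the gene's own strand. The NF-kB-like pattern left some bases free and is looser than the NF-kB consensus. TGACGT or its complement stood in 5 of the 12 (Fos, Cxcl1, Il6, Atf3 and Btg2), against 6.47% of 32851 promoters. The NF-kB-like pattern stood in 4 (Cxcl1, Il6, Cxcl2 and Gadd45g), against 4.11%. Some of its matches depart from the NF-kB consensus, among them the match in Gadd45g and 1 in Cxcl1. TGANTCA was found in 1 (Il6), against 6.75%, and TATAAA in 3 (Fos, Il1b and Gadd45g), against 7.59%. These are matches of letters, not sites shown to be bound, and the 12 genes were chosen for their rise. Capitals mark every match in the windows below, given 5′ to 3′ on the strand of the gene; in Btg2 the matches on the 2 strands overlap. The windows are chr12:85473640-85473889 (plus strand) for Fos, chr1:191183334-191183583 (minus strand) for Atf3, chr1:134079156-134079405 (minus strand) for Btg2, chr5:30012864-30013113 (plus strand) for Il6, chr5:90890995-90891244 (plus strand) for Cxcl1 and chr5:90903649-90903898 (plus strand) for Cxcl2.
Fos: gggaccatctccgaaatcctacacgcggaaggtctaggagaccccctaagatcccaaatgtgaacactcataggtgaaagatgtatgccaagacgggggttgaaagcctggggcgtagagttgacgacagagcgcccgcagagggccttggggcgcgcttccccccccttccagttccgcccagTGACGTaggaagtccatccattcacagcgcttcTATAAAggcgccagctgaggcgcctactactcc
Atf3: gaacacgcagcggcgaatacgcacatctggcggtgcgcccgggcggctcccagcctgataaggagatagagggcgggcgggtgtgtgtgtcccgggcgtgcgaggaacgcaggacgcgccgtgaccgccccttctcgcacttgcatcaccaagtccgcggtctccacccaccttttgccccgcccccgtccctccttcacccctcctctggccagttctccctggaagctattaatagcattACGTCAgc
Btg2: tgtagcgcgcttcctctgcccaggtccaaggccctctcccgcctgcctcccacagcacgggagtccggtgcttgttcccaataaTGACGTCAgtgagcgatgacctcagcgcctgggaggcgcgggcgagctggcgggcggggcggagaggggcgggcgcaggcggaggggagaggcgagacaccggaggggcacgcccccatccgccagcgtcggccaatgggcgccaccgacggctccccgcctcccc
Il6: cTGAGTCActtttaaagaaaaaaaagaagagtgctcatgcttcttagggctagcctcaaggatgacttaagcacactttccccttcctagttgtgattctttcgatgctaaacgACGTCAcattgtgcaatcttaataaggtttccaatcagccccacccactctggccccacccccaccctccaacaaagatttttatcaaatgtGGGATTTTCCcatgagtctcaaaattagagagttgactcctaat
Cxcl1: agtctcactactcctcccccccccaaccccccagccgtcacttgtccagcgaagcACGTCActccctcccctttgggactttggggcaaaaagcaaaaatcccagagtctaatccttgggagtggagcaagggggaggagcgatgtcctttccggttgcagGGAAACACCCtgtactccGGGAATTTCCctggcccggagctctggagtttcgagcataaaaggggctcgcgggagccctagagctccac
Cxcl2: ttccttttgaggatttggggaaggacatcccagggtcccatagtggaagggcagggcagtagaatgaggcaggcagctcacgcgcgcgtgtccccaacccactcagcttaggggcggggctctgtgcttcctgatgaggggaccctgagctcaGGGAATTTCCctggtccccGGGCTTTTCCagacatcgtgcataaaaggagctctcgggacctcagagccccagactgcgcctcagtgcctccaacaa

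Other early transcription factors rose in part. Of 20 members of the Egr, Nr4a, Klf and Ier families and Myc tested, 4 rose and 0 fell (median log2 change 0.40). Egr1, a zinc finger factor induced by growth factors and stretch, had 2419.7, 2313 and 1992 in infarct arrays, against 752, 559 and 859.8 in sham upper arrays (1.59 ± 0.30, adjusted p = 0.00056). Ier2, a nuclear protein of the same response, had 1836, 1733 and 1777 in infarct arrays, against 799, 638 and 562 in sham upper arrays (1.37 ± 0.17, adjusted p = 7.5e-07). Ier3, which limits cell death under stress, had 2766, 2516 and 3212 in infarct arrays, against 1450.1, 1709 and 1590.0 in sham upper arrays (0.82 ± 0.18, adjusted p = 0.0036), and here the infarct arrays lay within the range of the later sham arrays, which reached 3747. Myc passed narrowly (0.64 ± 0.20, adjusted p = 0.049) and lost its call without any array but the first infarct array, at 96.9, 134 and 142 in infarct arrays, against 75.3, 72.6 and 44.3 in sham upper arrays. Nr4a1, an orphan nuclear receptor, had 3216, 2891 and 2586 in infarct arrays, against 2096, 1085 and 822 in sham upper arrays, and did not pass (1.19 ± 0.49, adjusted p = 0.15). Egr2 (0.57 ± 0.22, adjusted p = 0.12), Klf6 (0.41 ± 0.16, adjusted p = 0.11) and Klf4 (0.27 ± 0.22, adjusted p = 0.54) also did not pass.

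Genes whose products end the early signal rose in part. Of 19 inhibitors of MAP kinases and factors of mRNA decay, 6 rose and 0 fell (median log2 change 0.43). Btg2, which slows cell division and speeds the removal of poly(A) tails, had 4455, 4545 and 4033 in infarct arrays, against 1393, 1009 and 1702 in sham upper arrays (1.66 ± 0.23, adjusted p = 3.8e-06). Dusp1, a phosphatase that switches off MAP kinases, had 7004, 6443 and 5751 in infarct arrays, against 4149.8, 2839 and 2226 in sham upper arrays (1.09 ± 0.20, adjusted p = 0.00038). Zfp36, or tristetraprolin, which marks cytokine mRNAs for decay, had 2031, 2415 and 2459.9 in infarct arrays, against 848, 1195 and 1152 in sham upper arrays (1.09 ± 0.26, adjusted p = 0.0083). In these 3 genes every infarct array was brighter than all 18 sham upper arrays. Zfp36l1, its relative, rose by 0.72 ± 0.17, adjusted p = 0.008, and Dusp6, a phosphatase of ERK, by 0.63 ± 0.15, adjusted p = 0.0062. Plk2, a polo-like kinase, was the last of the 6. Without the first sham upper array the list had 3 calls, with Zfp36 and Zfp36l1 among those lost, and without the second infarct array, where Dusp6 lost its call, it had 4. Against the 15 later sham arrays the change of Zfp36l1 was 0.15, adjusted p = 0.58.

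**Figure D2:**
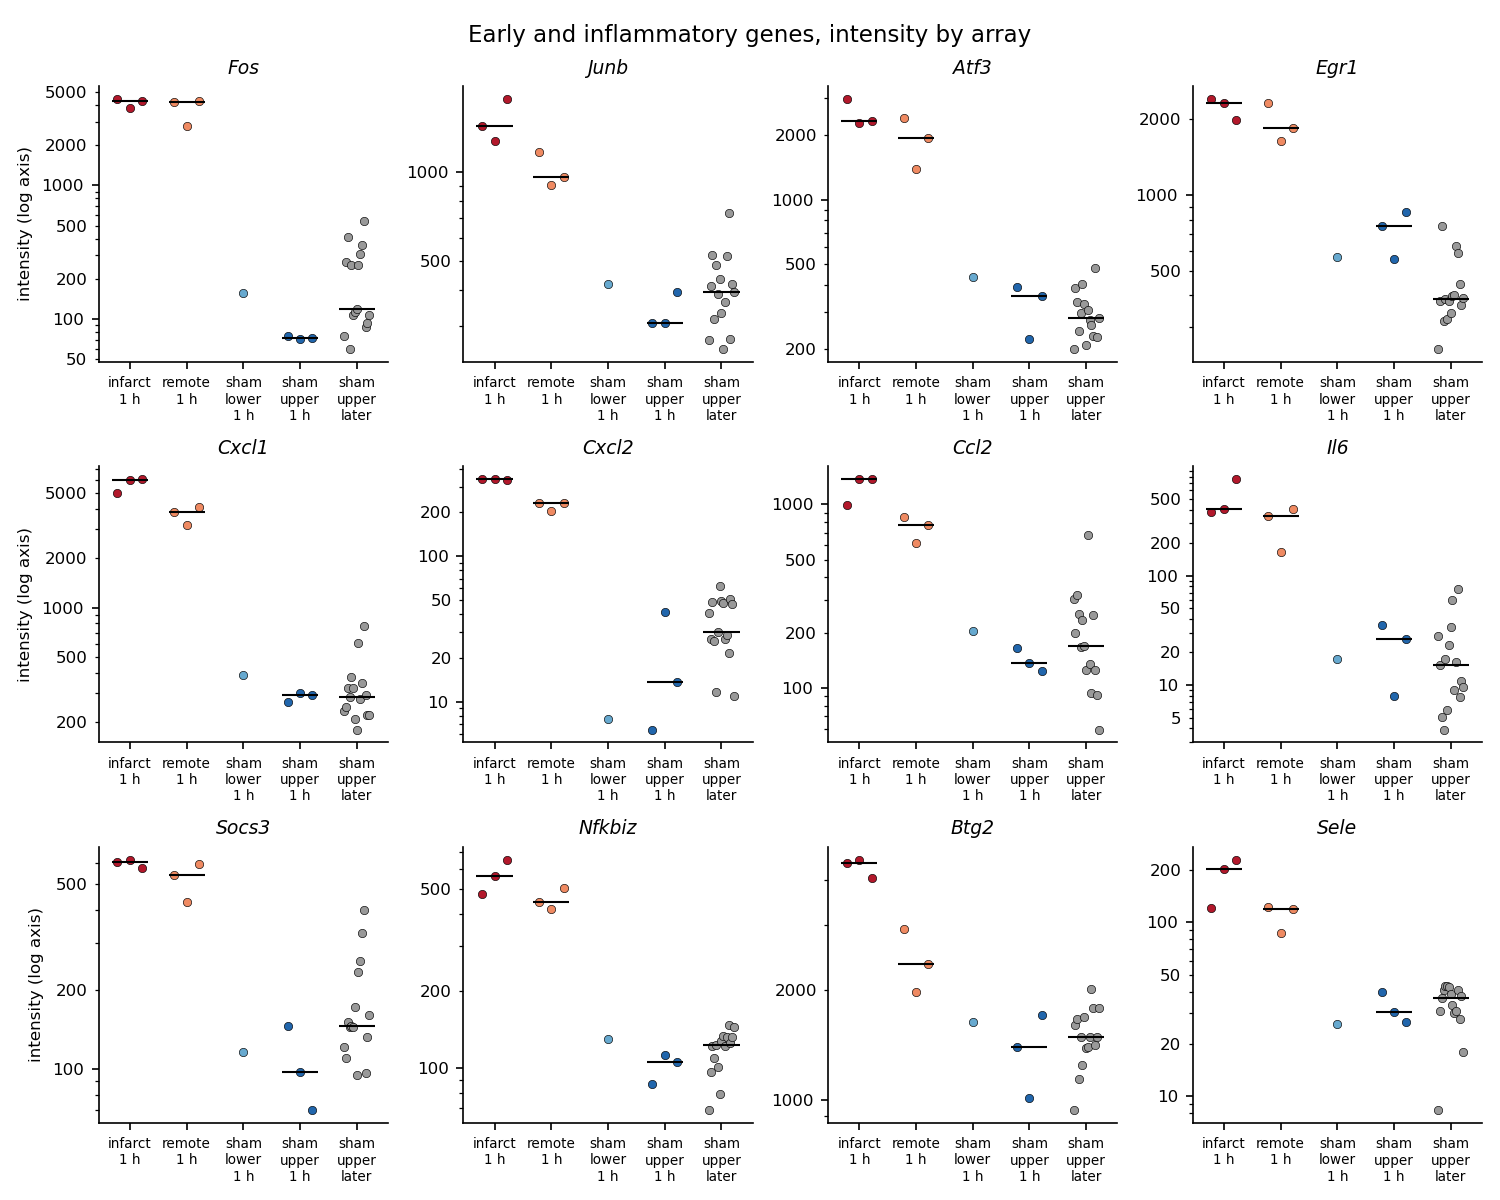
Intensity on a log axis of 12 early and inflammatory genes, 1 point per array, for infarct, remote, sham lower and sham upper tissue at 1 h and for the 15 sham upper arrays of the 5 later times; lines are medians. The infarct arrays lie above every sham array in each of the 12 genes, and the remote arrays lie at or somewhat below them.

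Chemokines that attract neutrophils and monocytes were among the largest changes. Of 12 CXC chemokines and receptors tested, 2 rose and 0 fell (median log2 change 0.28), and of 15 CC chemokines and receptors 2 rose and 0 fell (0.31). Cxcl1, a neutrophil attractant, had 4975, 5991 and 6063 in infarct arrays, against 266, 300.4 and 294 in sham upper arrays (4.10 ± 0.35, adjusted p = 4.3e-11), and its second probe set changed by 4.05 ± 0.33. Cxcl2, which acts on the same receptor, had 339.9, 338.7 and 333 in infarct arrays, against 6.4, 41.3 and 13.6 in sham upper arrays (2.57 ± 0.44, adjusted p = 0.0002). Cxcl2 was near background in sham tissue, while Cxcl1 was measured well above it, so both groups of Cxcl1 arrays gave a level. Ccl2, the main attractant of monocytes, had 988, 1370.2 and 1369 in infarct arrays, against 164, 137 and 123 in sham upper arrays (2.77 ± 0.41, adjusted p = 1.8e-05). Ccl7, a related attractant, had 364, 284 and 299.7 in infarct arrays, against 52.8, 105 and 72.6 in sham upper arrays (1.58 ± 0.39, adjusted p = 0.0086). Each of these 4 genes lay above all 15 later sham arrays in all 3 infarct arrays. The call of Ccl7 was lost without the first sham upper array. Ccl3 had 171, 158 and 166 in infarct arrays, against 54.2, 198 and 32.7 in sham upper arrays, with 1 sham array above all infarct arrays (0.76 ± 0.31, adjusted p = 0.14), and Ccl4 was below the filter intensity on all 6 arrays. Against the 15 later sham arrays Ccl3 was called higher (log2 change 1.09, adjusted p = 0.0039) and Ccl4 was not called (0.39, adjusted p = 0.24). Cxcr2, the receptor of Cxcl1 and Cxcl2 on neutrophils, was below the filter intensity on all 6 arrays.

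Il6, a cytokine of the acute phase response, had 378, 409 and 763 in infarct arrays, against 35, 8 and 26.1 in sham upper arrays, and its log2 change was 2.99 ± 0.38, adjusted p = 9.4e-07. All sham arrays were below the filter intensity, and no later sham array exceeded 75.1. Socs3, which Il6 signalling induces and which blocks that signal, had 607, 621 and 576 in infarct arrays, against 146, 97.4 and 69.9 in sham upper arrays (2.14 ± 0.23, adjusted p = 2.2e-08), and its second probe set rose by 3.06 ± 0.36. These 2 were the members called of 21 tested in the Il6 family and its signalling (median 0.02). Of 11 members of the interleukin 1 system 3 rose and 0 fell (median 0.09). Il1b, the secreted cytokine, had 223, 146 and 242 in infarct arrays, against 11.8, 12.8 and 16.9 in sham upper arrays (2.05 ± 0.61, adjusted p = 0.035), but its call was lost when any 1 of the 6 arrays was left out. Il1r2, a decoy receptor that binds interleukin 1, had 177, 137 and 114 in infarct arrays, against 60.8, 46.4 and 45.3 in sham upper arrays (0.95 ± 0.25, adjusted p = 0.018), and Casp4, an inflammatory caspase, rose by 0.55 ± 0.16, adjusted p = 0.035. The second probe set of Il1r2 did not pass (0.11 ± 0.30, adjusted p = 0.90). With 1 array left out the list had 0 or 1 calls: Il1r2 was lost without the second sham upper or the first or second infarct array, and Casp4 without any array but the second infarct array. The acute phase protein Ptx3, which binds microbes and dying cells, had 230.0, 145 and 180.4 in infarct arrays, against 28.7, 15.6 and 16.9 in sham upper arrays (1.80 ± 0.35, adjusted p = 0.00086).

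Genes that NF-kB is known to switch on rose in part. Of 21 tested, 5 rose and 0 fell (median log2 change 0.06). Nfkbiz, a nuclear partner of NF-kB needed for Il6 expression, had 481, 564 and 655 in infarct arrays, against 86.9, 113 and 105 in sham upper arrays (2.05 ± 0.20, adjusted p = 1.3e-09). Csf1, the growth factor of macrophages, had 945, 1273 and 1195 in infarct arrays, against 362.3, 662.7 and 511.1 in sham upper arrays (1.11 ± 0.21, adjusted p = 0.00069), but infarct arrays lay within the range of the later sham arrays (632 to 1349). Ptgs2, the inducible cyclooxygenase of prostaglandin synthesis, had 81.2, 158 and 182 in infarct arrays, against 36.1, 37.6 and 4.7 in sham upper arrays (1.37 ± 0.27, adjusted p = 0.001). Tnfaip3, an enzyme that shuts NF-kB off, had 31.3, 87.6 and 167 in infarct arrays, against 8.7, 22.1 and 25.2 in sham upper arrays (1.02 ± 0.27, adjusted p = 0.016). Both were dim, and the lowest infarct array of each, like all its sham arrays, lay below the filter intensity. Cd83 was the fifth. The list had 3 calls without the first sham upper array or without the third infarct array, Tnfaip3 being lost in both cases. Nfkbia, which holds NF-kB in the cytoplasm, was not called at 1 h (-0.0085 ± 0.19, adjusted p = 0.99), with 1967, 2176 and 2368 in infarct arrays, against 2063, 1779 and 2809.6 in sham upper arrays. The later sham arrays of Nfkbia spanned 838 to 2358, and against those it was called higher (log2 change 0.78, adjusted p = 0.00076).

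Endothelial cells display adhesion molecules that catch white blood cells. Of 17 genes of endothelial adhesion and activation, 2 rose and 0 fell (median log2 change 0.19). Sele, or E-selectin, which is made only after activation, had 121, 202 and 230.3 in infarct arrays, against 39.7, 30.6 and 26.8 in sham upper arrays (1.53 ± 0.21, adjusted p = 3.8e-06). Icam1, the ligand of leukocyte integrins, had 292, 513 and 544 in infarct arrays, against 211, 159 and 107 in sham upper arrays (1.27 ± 0.25, adjusted p = 0.00086). For both genes the lowest infarct array was above the highest of the 18 sham upper arrays. Selp, or P-selectin, had 35.6, 41.5 and 63.4 in infarct arrays, against 28.2, 41.1 and 24.1 in sham upper arrays (0.26 ± 0.25, adjusted p = 0.61). Of 11 markers of endothelial cells, Cldn5, a tight junction protein, rose (0.75 ± 0.18, adjusted p = 0.0089) and Eng, a co-receptor of the TGF-beta family, fell (-0.60 ± 0.15, adjusted p = 0.01). Cldn5 lost its call without the first infarct array, and Eng without the third infarct array. Their summed intensity was 12764, 12116 and 11137 in infarct arrays, against 14301, 15007 and 13576 in sham upper arrays and 11474 in the sham lower array. In tissue samples such as these, fewer cells of a type and less RNA per cell cannot be told apart.

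Markers of white blood cells are given beside the shares of all genes tested, of which 3.66% were called higher and 3.12% lower. At these shares lists this short would hold few calls or none. Of 14 neutrophil markers 1 was called higher, Il1b, and 6 had an unadjusted p below 0.05 in limma, as had 1359 of all 6670 genes tested. Against remote tissue 3 of the 14 were called higher in infarct, as were 3.16% of all genes tested. Remote tissue had 2 of the 14 called lower than in sham upper tissue. The share of all genes lower there is not given here, so nothing is read from this count. Of 19 markers of macrophages and monocytes 0 were called in limma and 0 had an unadjusted p below 0.05. Their summed intensity was 10788, 8965 and 9458 in infarct arrays, against 9237, 11454 and 8303 in sham upper arrays, so the groups overlapped, and 6 of the 19 were below the filter intensity on all 6 arrays. Summed over the 14 neutrophil markers the intensity was 2462, 1981 and 2111 in infarct arrays, against 1293, 1182 and 1079 in sham upper arrays and 1931 in the sham lower array of 1 h. Every infarct array was above every sham upper array, and the single sham lower array was close to the lowest infarct array. Cxcr2, Mmp8, Mmp9, Clec4d and Itgam were below the filter intensity on all 6 arrays. S100a8, a subunit of calprotectin of neutrophils, had 553, 302 and 334 in infarct arrays, against 153, 104 and 152 in sham upper arrays (1.25 ± 0.46, adjusted p = 0.097). S100a9, the other subunit, had 419, 302 and 204 in infarct arrays, against 78.9, 22.3 and 148 in sham upper arrays (1.54 ± 0.53, adjusted p = 0.07). The groups did not overlap for either gene, and neither passed. What neutrophil RNA contributed to the rise of Il1b or the chemokines was not tested.

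Stress genes gave a mixed picture. Atf4, the factor through which the integrated stress response acts, had 1554, 1563 and 1628 in infarct arrays, against 828, 1056 and 1362 in sham upper arrays (0.56 ± 0.15, adjusted p = 0.023), within the range of the later sham arrays (1256 to 2027), and besides Atf3 it was the only one of 23 genes of that response called. Its call was lost without any array but the third sham upper array. Gadd45g, a growth arrest gene, had 1044, 1007 and 987 in infarct arrays, against 227, 273 and 423 in sham upper arrays (1.62 ± 0.28, adjusted p = 0.00023), above all later sham arrays. Gadd45b had 824, 812 and 766 in infarct arrays, against 317, 304 and 609 in sham upper arrays (0.96 ± 0.36, adjusted p = 0.1). Against the 15 later sham arrays Gadd45b was called higher (log2 change 1.94, adjusted p = 6e-06). Bcl2l1, which encodes the survival protein Bcl-xL, fell (-0.71 ± 0.18, adjusted p = 0.013), at 1076, 1071 and 851 in infarct arrays, against 1838, 1896 and 1312 in sham upper arrays, and lost its call without the first or second sham upper or the third infarct array. Mt2, a metallothionein that binds zinc and copper, had 4501, 4872 and 5423 in infarct arrays, against 1608, 2054 and 2615 in sham upper arrays (1.24 ± 0.24, adjusted p = 0.00066), and later sham arrays spanned 1802 to 10718. Its neighbour Mt1 had 4812, 6482 and 7120.0 in infarct arrays, against 5524, 5108 and 5478 in sham upper arrays (0.17 ± 0.19, adjusted p = 0.67). Of 20 hypoxia-induced genes 0 were called in limma and 5 had an unadjusted p below 0.05 (median log2 change -0.02). Vegfa, the angiogenic growth factor, had 1058, 1685 and 1445 in infarct arrays, against 722, 876 and 805 in sham upper arrays (0.75 ± 0.32, adjusted p = 0.16). Adm averaged 190.4 ± 10.7 in infarct arrays and 259 ± 15.3 in sham upper arrays (SD, n = 3 each), a log2 change of -0.37 ± 0.23, adjusted p = 0.39. Hmox1, the inducible heme oxygenase, had 954, 903 and 1056 in infarct arrays, against 864, 1088 and 1055 in sham upper arrays (-0.04 ± 0.20, adjusted p = 0.94).

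Of 21 heat shock chaperones 4 rose and 0 fell (median log2 change 0.10). Hspd1, the chaperonin of mitochondria, had 6263, 7927 and 9149.5 in infarct arrays, against 3308, 4362 and 3997 in sham upper arrays (0.98 ± 0.19, adjusted p = 0.00074). Dnajb4 (0.96 ± 0.25, adjusted p = 0.013), Chordc1 (0.57 ± 0.16, adjusted p = 0.022) and Hsp90aa1 (0.42 ± 0.13, adjusted p = 0.044) were the others, and none of the 4 was called against the 15 later sham arrays. The list had 1 call without the first sham upper array and 2 without the second sham upper or the second infarct array. Hspd1 kept its call without any 1 array. The second probe set of Chordc1 did not pass (0.24 ± 0.14, adjusted p = 0.35), nor did that of Hspd1 (0.16 ± 0.32, adjusted p = 0.84), whose means were below the filter intensity. The stress-inducible Hspa1a had 1076, 688 and 769.9 in infarct arrays, against 933, 1005 and 210.2 in sham upper arrays, and Hspa1b 812, 596 and 638 in infarct arrays, against 1195, 1278 and 128 in sham upper arrays. In both genes the third sham upper array was far below the other 2 and below all infarct arrays, so that the sham spread was wide. Neither passed (0.45 ± 0.48, adjusted p = 0.65, and 0.13 ± 0.48, adjusted p = 0.92). The sham lower array had 286 and 219. Later sham arrays had 152 to 1983 for Hspa1a and 145 to 1373 for Hspa1b, each highest value from the third array of 1 week. The next highest were 456.8 and 456.5, below the first and second sham arrays of 1 h. Against the 15 later sham arrays the change was 1.40 (adjusted p = 0.014) for Hspa1a and 1.09 (adjusted p = 0.065) for Hspa1b.

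Many members of a list of RNA binding and splicing factors were higher in infarct than in the sham arrays of 1 h. Of 24 members 12 rose and 0 fell (median log2 change 0.48): Srsf5, Srsf6, Srsf10, Tra2b, Hnrnpa2b1, Hnrnpdl, Hnrnph1, Hnrnpk, Hnrnpu, Clk1, Clk4 and U2af1. Clk1, a kinase that phosphorylates splicing factors, had 1169, 1371 and 1443 in infarct arrays, against 402, 439.7 and 686 in sham upper arrays (1.34 ± 0.19, adjusted p = 1.2e-05). Hnrnph1, which binds G-rich RNA, had 1888, 1938 and 1836 in infarct arrays, against 819, 703 and 1348 in sham upper arrays (1.00 ± 0.16, adjusted p = 0.00011), and Hnrnpdl, a relative that binds AU-rich RNA, had 3047, 2946 and 2879 in infarct arrays, against 1538, 1496 and 2442 in sham upper arrays (0.72 ± 0.12, adjusted p = 0.0002). Tra2b, a splicing activator, had 853, 1386 and 961 in infarct arrays, against 523, 461 and 527 in sham upper arrays (0.99 ± 0.19, adjusted p = 0.00081). The 15 later sham arrays had 999 to 2429 for Clk1, 1382 to 2323 for Hnrnph1, 2504 to 3344 for Hnrnpdl and 701 to 1363 for Tra2b, in each case above all 3 sham upper arrays of 1 h. Of the 12 genes called, 8 had all infarct arrays within the range of the later sham arrays (61.9% of all genes tested), 6 had all sham arrays of 1 h below it, and 0 had the infarct arrays above it. Against the 15 later sham arrays 0 of the 24, and so 0 of the 12 called, were higher and 1 was lower. The 5 AP-1 genes called, of 11 tested, kept their call there. Both sets were called on the infarct arrays that this comparison uses again. With 1 array left out the count of the list lay between 6 and 12; it was 6 without the first and 7 without the second sham upper array.

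A few genes of the mitochondria were also higher in infarct than in the sham arrays of 1 h. Of 23 genes of the citric acid cycle 3 rose and 0 fell (median log2 change 0.12). Sucla2, a subunit of succinyl-CoA ligase, had 7872, 8807 and 8398 in infarct arrays, against 4133, 4437 and 6308 in sham upper arrays (0.77 ± 0.20, adjusted p = 0.014), and the later sham arrays spanned 6558 to 9588. Dld, a dehydrogenase subunit shared by several complexes, had 6682, 6860.0 and 7018 in infarct arrays, against 4601, 4420.2 and 4885 in sham upper arrays (0.56 ± 0.16, adjusted p = 0.03), with 6021 to 8036 in the later sham arrays. Pdha1, of pyruvate dehydrogenase, rose by 0.45 ± 0.14, adjusted p = 0.037. Infarct arrays lay within the later sham range for all 3. With 1 array left out the list had 0 calls without the first or second sham upper or the second infarct array, 1 without the first or the third infarct array and 3 without the third sham upper array. Ndufs1, a subunit of complex I, was the only one of 61 genes of oxidative phosphorylation called (0.55 ± 0.17, adjusted p = 0.042), and its call was lost without any array but the third sham upper array. Ifrd1, a transcriptional regulator of muscle regeneration and one of the 14 largest rises, had 707, 861 and 578 in infarct arrays, against 176, 148 and 268 in sham upper arrays (1.66 ± 0.26, adjusted p = 4.3e-05), with later sham arrays at 349 to 726, above all those of 1 h. None of these 5 genes was called against the later sham arrays. The sham lower array of 1 h, which has the number of the third sham upper array, lay below all later sham upper arrays for Clk1 (700.0), Hnrnpdl (2333), Tra2b (622), Dld (5904), Sucla2 (6218) and Ndufs1 (6913). It lay within their range for Hnrnph1 (1435), Ifrd1 (442), Pdha1 (10203) and Hspd1 (6919).

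**Figure D3:**
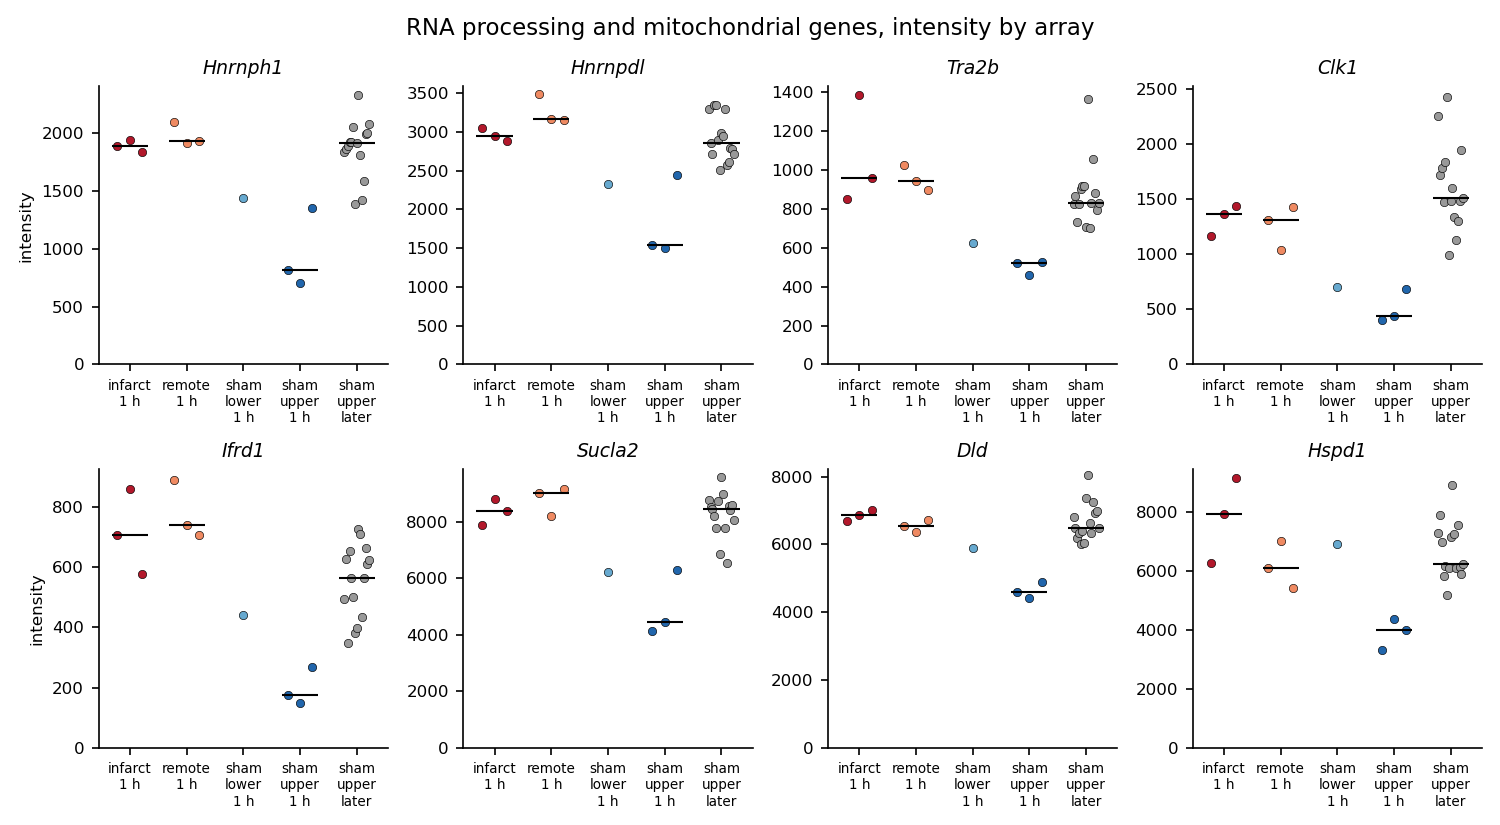
Intensity on a linear axis of 4 RNA processing genes (upper row), of Ifrd1, and of 3 mitochondrial genes (lower row), 1 point per array, groups as in the plot of early genes; lines are medians. The infarct arrays overlap the 15 later sham upper arrays in each gene, and the 3 sham upper arrays of 1 h lie below all of the later ones.

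No gene fell 4-fold. Ephx1, the microsomal epoxide hydrolase, showed the largest fall, with 145.6 to 155.8 in the 3 infarct arrays, against 476.8 to 667.7 in the 3 sham upper arrays (-1.71 ± 0.33, adjusted p = 0.00069). Remote arrays of the same hearts had 466, 516 and 578, the sham lower array 454 and the later sham upper arrays 336 to 996, so that the 3 infarct arrays were below each of these. Of 29 detoxification enzymes 0 rose and 3 fell (median log2 change -0.22). Gstp1, a glutathione transferase, had 4169, 3959.7 and 4119.8 in infarct arrays, against 6316, 5358 and 5172 in sham upper arrays (-0.45 ± 0.10, adjusted p = 0.0058), and Gstm5, another, had 3901, 3678 and 3204 in infarct arrays, against 4578, 5431 and 4148 in sham upper arrays (-0.38 ± 0.12, adjusted p = 0.039). Infarct arrays of Gstp1 were within the later sham range, 3888 to 5506, and against the later sham arrays neither Gstp1 (-0.17, adjusted p = 0.23) nor Gstm5 (-0.086, adjusted p = 0.64) was called. Without the first sham upper array Ephx1 was the only call of the list, and Gstm5 was also lost without the second sham upper and the second or the third infarct array. Sod1, the cytosolic superoxide dismutase, had 2232, 2316 and 2146 in infarct arrays, against 4007, 3001 and 3516 in sham upper arrays (-0.63 ± 0.14, adjusted p = 0.0044), but the sham lower array had 2054, lower than the infarct arrays, and the call was lost without the first sham upper array.

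The other large falls were of dim genes. Sorbs3, or vinexin, an adaptor of cell adhesion, had 62.2, 219.8 and 119 in infarct arrays, against 349.9, 377 and 434 in sham upper arrays (-1.36 ± 0.25, adjusted p = 0.00052). Pstpip1, an adaptor of the leukocyte cytoskeleton, had 38.5, 99.4 and 14.9 in infarct arrays, against 207, 217 and 179.7 in sham upper arrays (-1.45 ± 0.32, adjusted p = 0.0038), and its second probe set did not pass (-0.34 ± 0.22, adjusted p = 0.41). Serpina6, the carrier of corticosteroids in blood, had 17.4, 23.2 and 85.9 in infarct arrays, against 166, 233 and 131 in sham upper arrays (-1.40 ± 0.30, adjusted p = 0.0033), and its second probe set did not pass (-0.13 ± 0.21, adjusted p = 0.80). The sham lower array lay within the infarct arrays for all 3 genes, at 173 for Sorbs3, 26.9 for Pstpip1 and 76.4 for Serpina6. The same held for Polr2i (49.6), Utp14a (47.6), Igkv14-111 (78.6) and Zfpm2 (276.9), while it lay above the infarct arrays for Sema6b, Rab5b, Snx17 and Bmp5. The remaining 8 of the 12 largest falls by the naming rule, Sema6b, Polr2i, Rab5b, Snx17, Zfpm2, Bmp5, Utp14a and Igkv14-111, changed by -1.24 to -1.02, with infarct means of 27.6 to 218 against sham means of 110 to 528. Snx17, a sorting protein of endosomes, was the brightest, with 224, 183 and 248 in infarct arrays, against 609, 587 and 386 in sham upper arrays (-1.10 ± 0.26, adjusted p = 0.0068). Its second probe set did not pass (-0.43 ± 0.18, adjusted p = 0.15), nor did the other probe sets of Igkv14-111 (0.04 and -0.17), and the call of Snx17 was lost without the first sham upper array.

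Falls of brighter genes were smaller. Ppara, the nuclear receptor that drives fatty acid oxidation, had 918, 935 and 820.1 in infarct arrays, against 1548, 1494 and 1298 in sham upper arrays (-0.67 ± 0.21, adjusted p = 0.046), and it was the only one of 18 cardiac transcription factors called. The sham lower array of Ppara had 790.5, below the infarct arrays, and the call was lost when any 1 of the 6 arrays was left out. Ramp2, the partner of the adrenomedullin receptor, had 985, 977 and 1020.5 in infarct arrays, against 1500.2, 1549 and 1804 in sham upper arrays (-0.67 ± 0.14, adjusted p = 0.0019), and its infarct arrays lay below all 15 later sham arrays. Kcna5, a potassium channel, fell by 0.87 ± 0.26 on the log2 scale (adjusted p = 0.031), the only call among 24 genes of calcium handling and ion channels, lost without any array but the third sham upper or the second infarct array. Myh9, nonmuscle myosin, was lower than in sham arrays of 1 h (-0.56 ± 0.18, adjusted p = 0.048), where the sham arrays of 1 h lay above all later ones (2207 to 3319), and its call was lost when any 1 array was left out. The second probe set of Myh9 did not pass (-0.093 ± 0.21, adjusted p = 0.86).

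The contractile and metabolic programme of the muscle gave few calls. In limma 0 of 21 sarcomere genes (median log2 change -0.05), 0 of 33 genes of fatty acid oxidation and lipid uptake (0.03) and 0 of 18 natriuretic and load-induced genes (0.10) were called. Nppb, the brain natriuretic peptide, had 10219, 11626 and 10074 in infarct arrays, against 9622, 10520.3 and 7872 in sham upper arrays (0.19 ± 0.28, adjusted p = 0.77). Ankrd1, a load-sensitive muscle protein, had 17789, 18368 and 19839.6 in infarct arrays, against 13155, 14173 and 15969 in sham upper arrays (0.37 ± 0.18, adjusted p = 0.24), each infarct array above each sham upper array, but the sham lower array was brighter still (20864). Myh6, the main myosin of the mouse heart, had 30411, 29990.0 and 32884 in infarct arrays, against 32107, 29814 and 34715 in sham upper arrays, near the upper end of the scale (-0.049 ± 0.41, adjusted p = 0.97). Interferon-induced genes (22 tested), complement genes (14) and markers of smooth muscle cells (9), lymphocytes (8), red blood cells and platelets (5) and fat cells (8) each gave 0 calls in limma. Of all genes tested 6.78% were called, a share at which lists as short as those of this paragraph hold few calls or none. The counts of 0 are therefore not read as a result about these genes. At an unadjusted p below 0.05 the sarcomere list had 0 members, the lipid list 3, the natriuretic list 2, the interferon list 0 and the complement list 2, while 1359 of all genes tested lay below it.

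**Figure D4:**
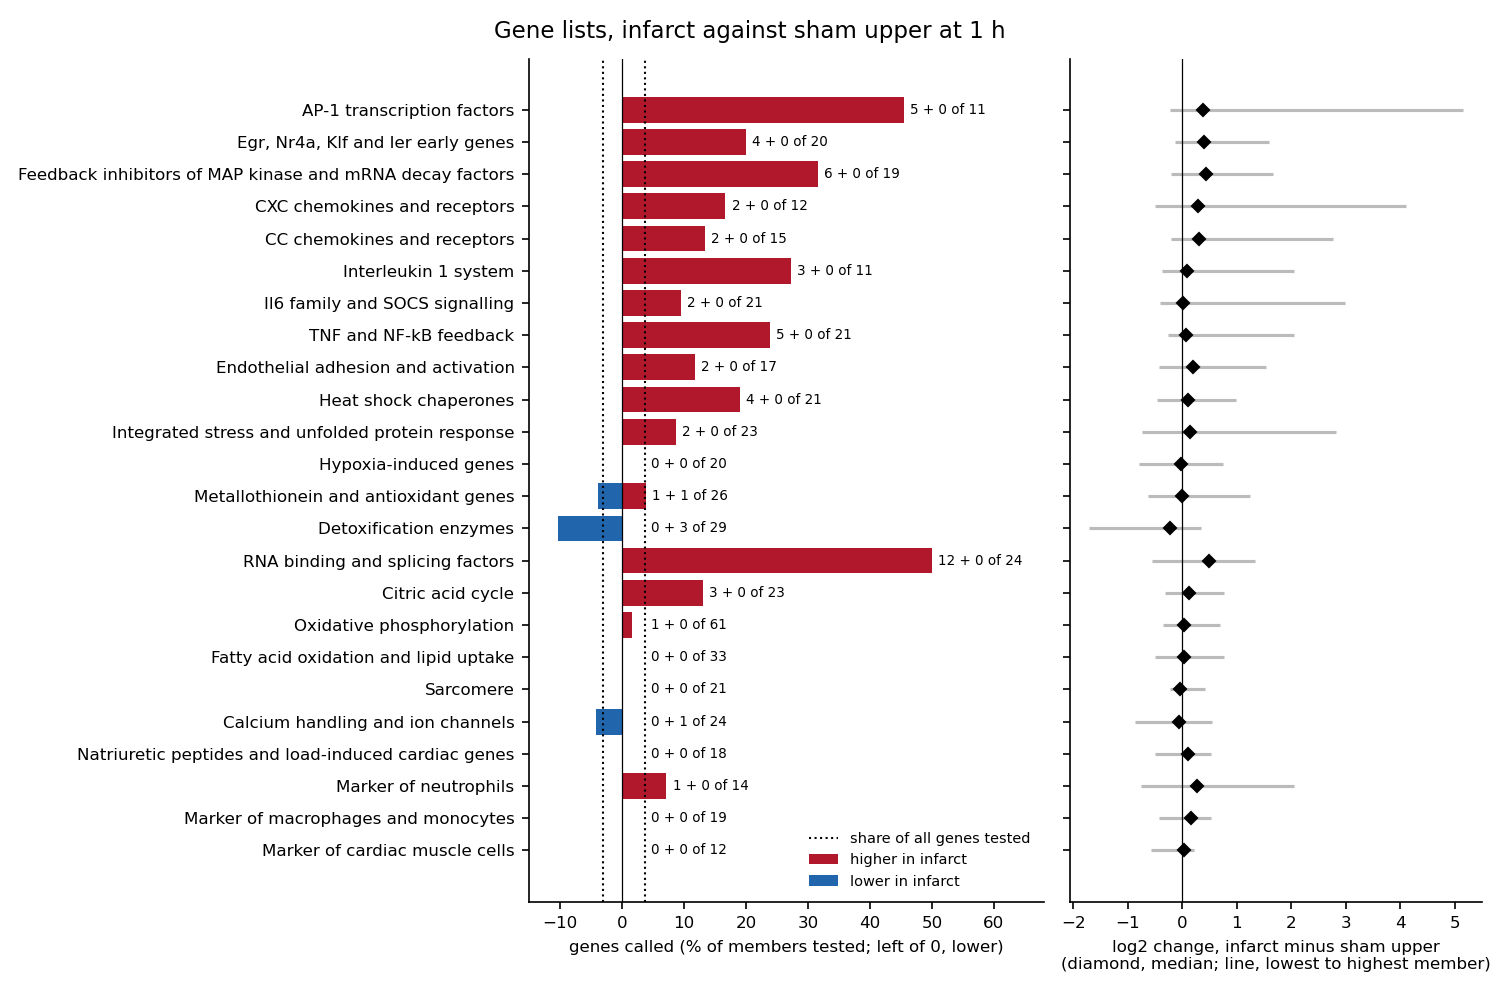
Left, the share of the tested members of 24 gene lists called higher (right of 0) or lower (left of 0) in infarct against sham upper tissue at 1 h, with the counts higher and lower of those tested; dotted lines are the shares of all genes tested, 3.66% and 3.12%. Right, the median and the range of the members' log2 changes, which run up to 5.16 in the AP-1 list while the medians stay between -0.22 and 0.48.

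The infarcted region was also compared with the remote region of the same hearts, since both lie in mice with an infarct. Infarct tissue came from below the artery and remote tissue from above it, so infarction and position cannot be told apart in this comparison. Here 5.08% of the genes were called, 211 higher (3.16%) and 128 lower (1.92%) in infarct. Of the 244 genes higher in infarct than in sham upper tissue, 20 were above remote tissue and 0 below it, and of the 208 lower genes 37 were below remote tissue and 0 above it. These counts rest on the spread pooled over all times: with only the 10 arrays of 1 h 3 genes were called, and with the 2 groups alone and the title number as a fixed block 0 were called. The remote arrays of Fos had 4239, 2775 and 4298, those of Cxcl1 3844, 3183 and 4101, and those of Atf3 2400.3, 1394 and 1937. All lay far above the sham upper levels given before, and infarct minus remote, 0.18 ± 0.38 for Fos, 0.61 ± 0.32 for Cxcl1 and 0.41 ± 0.30 for Atf3, passed for none of these 3 genes. Btg2 was higher in infarct than in remote tissue, which had 2927, 1972 and 2358 (infarct minus remote 0.85 ± 0.21, adjusted p = 0.013). Ephx1 and Sorbs3 were lower in infarct than in remote tissue (infarct minus remote -1.53 ± 0.30 and -1.58 ± 0.23). Adh7, an alcohol dehydrogenase of retinol metabolism, had 1529, 636 and 929 in infarct arrays, against 302, 427 and 288 in sham upper arrays (1.42 ± 0.25, adjusted p = 0.00034), and remote arrays had 310.7, 457 and 309. The sham lower array of Adh7 had 1146, within the infarct range, and against that array alone the change was -0.26. The AP-1 list had 5 calls in infarct and 5 in remote tissue against the same sham upper arrays, and the splicing list 12 and 13; 5.52% of all genes tested were higher in remote tissue, and both comparisons use the same sham arrays.

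At 4 h infarct and sham upper tissue came from other mice, with 3 arrays in each group, and 350 genes were higher (5.25%) and 446 lower (6.69%) in infarct. Of the genes higher at 1 h, 85 were also higher at 4 h, which is 34.8% of the 1 h list and 24.3% of the 4 h list. Of the genes lower at 1 h, 79 were also lower at 4 h (38.0% and 17.7%). The 2 changes differed from each other in 78 genes (1.17%), with a larger value at 4 h for 0.735% of all genes tested and a smaller one for 0.435%. Of the 244 genes higher at 1 h, the change was larger at 4 h for 6 and smaller for 11. Il6 was among those that grew, with a log2 change of 5.60 ± 0.38 at 4 h and a difference of 2.61 ± 0.54, adjusted p = 0.0065. Atf3 reached 4.76 ± 0.32 (difference 1.94 ± 0.45, adjusted p = 0.02) and Egr1 3.33 ± 0.30 (difference 1.74 ± 0.42, adjusted p = 0.024). Fos stood at 4.68 ± 0.41 and Cxcl1 at 3.87 ± 0.35 at 4 h, and for neither did the difference between the times pass.

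A second set of genes was called at 4 h and not at 1 h, with a difference between the times that passed. Hspa1a and Hspa1b were at 5.04 ± 0.48 and 4.95 ± 0.48, with differences of 4.59 ± 0.67, adjusted p = 5.6e-05 and 4.81 ± 0.68, adjusted p = 2.8e-05. Selp reached 3.24 ± 0.25 (difference 2.98 ± 0.36, adjusted p = 1.1e-06), Akap12, an anchor of protein kinase A, 2.60 ± 0.21 (difference 2.41 ± 0.29, adjusted p = 1.1e-06) and Id2, an inhibitor of DNA-binding factors, 3.11 ± 0.28 (difference 2.63 ± 0.40, adjusted p = 7.4e-05). Plaur, the urokinase receptor, and Adm, the vasodilator adrenomedullin, were at 2.43 ± 0.25 and 1.17 ± 0.23. Each of these 7 genes missed the threshold at 1 h and passed it at 4 h. Of the splicing list 6 of 24 were higher at 4 h, with a median log2 change of 0.17. Aaas, a nuclear pore protein near background, had 202, 176 and 138 in infarct arrays, against 31.2, 45.9 and 44.2 in sham upper arrays at 1 h (1.33 ± 0.27, adjusted p = 0.0017), and was lower than sham upper tissue at 4 h (-1.08 ± 0.27). The sham lower array of 1 h had 124 for Aaas, and the sham upper arrays of 4 h had 98.4, 125.5 and 112.9, above those of 1 h.

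**Figure D5:**
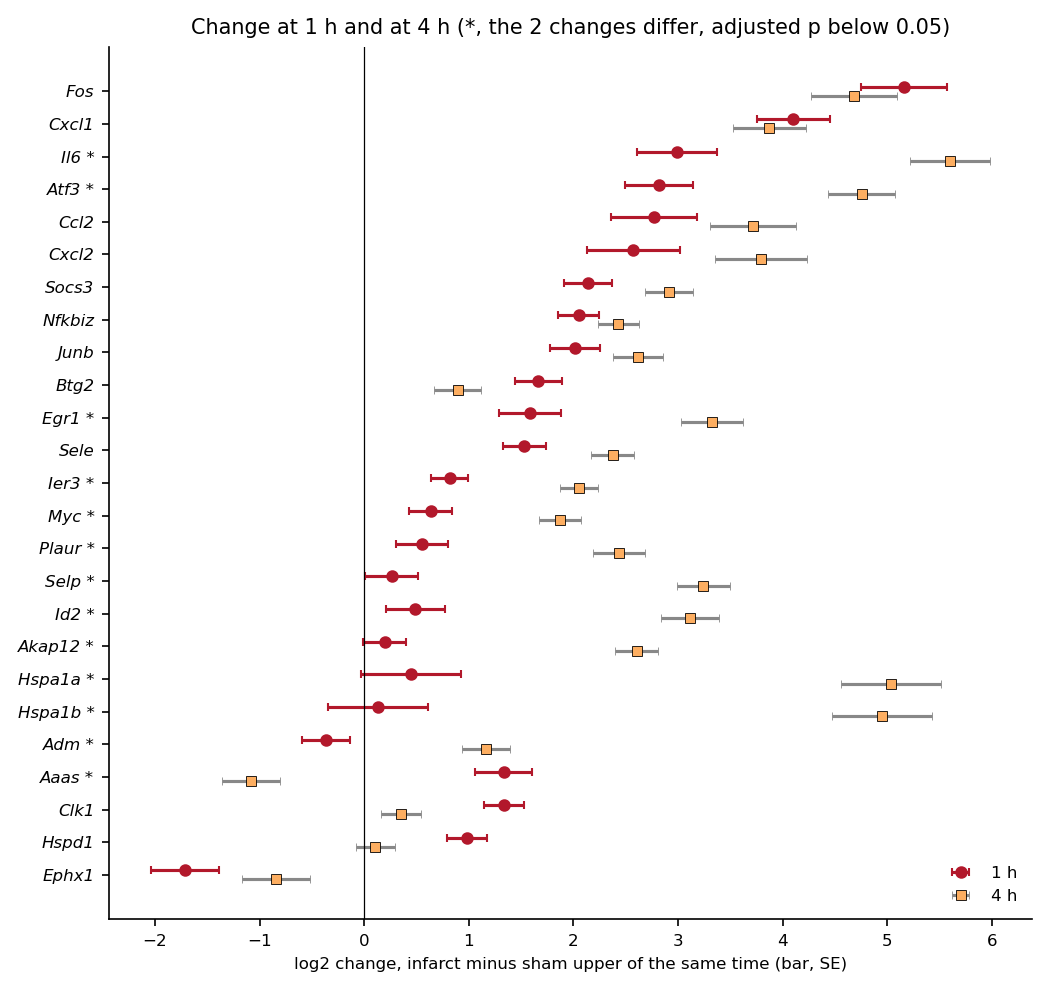
Log2 change, infarct minus sham upper tissue of the same time, with SE bars, for 25 named genes at 1 h (circles) and 4 h (squares), 3 arrays per group; a star marks genes whose 2 changes differ with an adjusted p below 0.05. The changes of Fos and Cxcl1 are 5.16 and 4.10 at 1 h and 4.68 and 3.87 at 4 h, with no star, and Hspa1a, Hspa1b, Selp, Id2 and Akap12 were not called at 1 h and lie between 2.60 and 5.04 at 4 h.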

How the data were processed

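Total RNA from mouse hearts, 1 piece of ventricle per array, was hybridised to 59 Affymetrix arrays. The deposited values are linear intensities, which the authors scaled, as the trimmed means of 499.4 to 499.9 on the 10 arrays of 1 h show; the software is not given in the sources used here. From these intensities, 45.6 (0.25 times the median of all values) was added and log2 taken. Of 12488 probe sets, 10833 named 1 gene, and the probe set with the highest mean stood for each of 8251 genes. Genes at 108.2 or more (the 40th percentile) on at least 3 arrays were tested, 6670 in all. limma 3.58.1 in R 4.3.3 fitted 23 groups of region and time, with the title number as a random block (consensus correlation 0.148), and p values were adjusted by Benjamini-Hochberg. The number of arrays limits the precision, at a median SE of 0.178. The method was tested on simulated data with known changes in the infarct group of 1 h. These data held no difference by position, time or set of mice, so the test cannot speak to those.

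Infarct and remote arrays with the same title number were taken as 1 heart. Over 17 such pairs their deviations correlated at -0.098 to 0.418, with 7 above 0.1. The pairs of 1 h correlated at -0.018, 0.004 and -0.067, so the pairing is not visible at that time. Each comparison used the same fit, and the alternatives changed the offset, normalization, filter, probe sets, arrays, weights, block or control. Genes were named by rule: the 14 largest rises and 12 largest falls without overlap, up to 4 passing members of each list with the smallest adjusted p, a panel of early, inflammatory and cardiac genes, and the 8 smallest adjusted p values against remote tissue and between the times. Other called members of a list are named only to complete its count. Genes compared and lists were chosen with earlier results of these data known.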

Additional observations from a re-analysis of the deposited data

Results flagged for a closer look

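Some named genes differed between infarct and remote tissue at 1 h by the test of that difference in limma, and the values here are log2, infarct minus remote. Higher in infarct were Lama1, a chain of laminin (1.38), Adh7 (1.35), Aaas (1.08), Btg2 (0.85), Ptgdr2, a prostaglandin receptor (0.69), Sema4f, a semaphorin (0.67), and Arpc5, a subunit of the Arp2/3 complex (0.43). Lower in infarct were Sorbs3 (-1.58), Ephx1 (-1.53), Fntb, a subunit of farnesyltransferase (-1.33), Utp14a (-1.08), Zfpm2 (-1.07), Igkv14-111 (-1.05), Fgfr1op2 (-0.97), Polr2i (-0.93), Pef1 (-0.87), Mitf (-0.84), Myh9 (-0.58), Sod1 (-0.54) and Ramp2 (-0.53). Infarct and remote tissue also differ by position, which cannot be told apart from infarction here. The single sham lower array of 1 h lay within the infarct arrays for Adh7, Ptgdr2, Sema4f, Arpc5, Sorbs3, Fntb, Utp14a, Zfpm2, Igkv14-111, Fgfr1op2, Polr2i and Myh9. It lay below them for Mitf and Sod1, and also for Lama1, Aaas and Btg2, which were higher in infarct. For Ephx1, Pef1 and Ramp2 it lay above them. These calls against remote tissue use the spread of all times. Only 3 genes in all were called with the 10 arrays of 1 h alone, and 0 with a fixed block of the title number.

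For other named genes the change against sham upper tissue at 4 h differed from that at 1 h, again by the test of the difference, given as log2, 4 h minus 1 h. It was larger at 4 h for Hspa1b (4.81), Hspa1a (4.59), Selp (2.98), Id2 (2.63), Il6 (2.61), Akap12 (2.41), Atf3 (1.94), Plaur (1.88), Ccn1, a matricellular protein (1.79), Bmp5 (1.78), Egr1 (1.74), Uck2, a uridine kinase (1.60), Adm (1.54), Utp14a (1.47), Pgm2 (1.44), Egr2 (1.30), Ier3 (1.24), Myc (1.23) and Hsp90aa1 (0.78). Aaas alone of these named genes went the other way (-2.42). For Hspa1a and Hspa1b, the third sham upper array of 1 h lay far below the first and second, which lay above most later sham arrays.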

How the results depend on the processing

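Of the 92 named genes that passed against sham upper tissue, 12 kept their call under all 18 alternatives: Atf3, Btg2, Cxcl1, Cxcl2, Egr1, Fos, Ier2, Il6, Junb, Nfkbiz, Sele and Socs3. With only the 6 arrays compared, 63 lost it, and the counts were 36 higher and 4 lower, of them 30 and 3 at least 2-fold. With the 10 arrays of 1 h they were 161 and 81, with 9 lower at least 2-fold, and 3 against remote tissue. Sham upper and lower arrays together gave 152 and 100, with 10 lower at least 2-fold. The sham lower array alone, with 1 array assumed to vary like the other groups, gave 21 and 2, of them 20 and 2 at least 2-fold. Lower genes of at least 2-fold numbered 8 against all 18 sham upper arrays and 10 against the 15 later ones. Offsets of 0.05 and 1 times the median gave 71 and 21 higher and 34 and 1 lower genes of at least 2-fold. The cause of these shifts was not tested. Without the replicate block, infarct against remote gave 172 calls, and 0 with a fixed replicate block in the 2 groups alone; infarct against sham upper gave 242 and 203 without the block.

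Leaving out 1 array gave 112 to 255 higher and 93 to 149 lower genes, 41 to 59 and 15 to 21 at least 2-fold, 56 to 340 against remote tissue and 37 to 87 for the difference between the times. The lowest of these came without the first infarct array for remote tissue and without the first infarct array of 4 h for the times. Signs are listed as turned where the gene was called in either fit. Against the sham lower array alone the sign turned for Adh7 (-0.26), Eng (0.029), Fntb (0.43), Igkv14-111 (0.032), Mitf (0.14), Myh9 (0.049), Polr2i (0.083), Ppara (0.14), Pstpip1 (0.30), Sod1 (0.12) and Utp14a (0.54). It turned against all 18 sham upper arrays for Ncl (-0.027) and Nfkbia (0.65), and against the 15 later ones for Atf4 (-0.036), Clk1 (-0.25), Hsp90aa1 (-0.0045), Ncl (-0.12), Nfkbia (0.78) and Psmd14 (-0.039). Of these only Nfkbia passed the threshold, with adjusted p values of 0.0053 and 0.00076. The alternatives with later sham arrays only, with position from the later times and with the counts of each list were chosen after seeing the data. Signal near background limits genes below 108.2.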
